A study of Mus musculus with 11 samples.

Results

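The genes examined here encode the respiratory chain and the ATP synthase of mitochondria, with the assembly factors whose symbols begin in the same way. They were taken by a rule on names: every protein-coding row of the deposited gene table whose symbol begins with Ndufa, Ndufb, Ndufc, Ndufs, Ndufv, Sdh, Uqcr, Cox4, Cox5, Cox6, Cox7, Cox8, Atp5 or mt-. The rule took 111 of 54532 rows, of which 98 lie in the nuclear genome and 13 in the mitochondrial genome. The rule uses no measured value, although it was set with earlier results of these data known.

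The respiratory chain passes electrons from NADH through complex I, or from succinate through complex II, to complex III and then to complex IV, which reduces oxygen. Complexes I, III and IV pump protons across the inner mitochondrial membrane, and the ATP synthase uses the returning protons to make ATP. Most subunits are nuclear genes, but the mitochondrial genome holds 13 protein-coding genes, whose rows are called mRNAs below. Among them are core subunits of complexes I, III and IV and of the ATP synthase, so each of these enzymes is built from both genomes. Complex II is the exception and is wholly nuclear. T cells with a memory-like state, as the cells studied here, are known to lean on oxidative phosphorylation.

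The study sorted CD8+CD44+Ly49+CD122+ cells, called CD8+ Tregs, from the spleens of wild-type C57BL/6J mice after enrichment of CD8+ cells on beads, and sequenced their RNA to ask what changes with age. Young mice were 2 to 3 months and Old mice 10 to 12 months old by the series text, although the study's figure legends give slightly different ages and call the older group middle-aged. There were 3 Young males, 2 Old males, 3 Young females and 3 Old females, 11 libraries in all, with no other treatment or allele. The labels number the libraries from 1 within each group, and no label ties libraries of different groups to a shared animal, day or batch.

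The libraries held between 6135736 and 24394532 counts, and the lowest totals were those of Young male 1 and Young female 1. The markers of the CD8 T cell and the gate (8 genes) summed to between 6920 and 11873 CPM in every library, where CPM are counts scaled to each library's total with TMM factors, and the CD4 T cell markers (3 genes) to at most 28.5. Markers of myeloid cells (6 genes) summed to 1263 CPM in Old female 2, to 334 in Old male 1 and to at most 217 in the Young libraries. The other Old libraries had 115 to 143. Those of B cells (5 genes) ranged from 108 to 355 across all libraries. The plasma cell list (4 genes) ranged from 87.5 to 351, the dendritic cell list (5 genes) from 4.88 to 53.9 and the erythroid and platelet list (5 genes) from 0.761 to 110 CPM. The NK cell list (7 genes) summed to 2744 to 9770 in Young and 2880 to 7574 in Old, and Nkg7, a granule protein that CD8 T cells also make, was part of that list. By gene, in the edgeR fit for age used below, its median log2 fold change of Old over Young was -0.78, 2 above 0 and 5 below. At an unadjusted p under 0.05 in that fit 3 were lower in Old and 0 higher, against 0.990% and 2.00% of all genes tested. At an adjusted p under 0.05 there were 0. In the 7 libraries numbered 2 and 3 there were 5 at an unadjusted p under 0.05, in either direction, against 4.61%. In the fit of all 11 libraries 1 of 6 myeloid genes was higher in Old at an unadjusted p under 0.05, against 2.00% of all genes. There 2 of 4 erythroid and platelet genes tested were lower, against 0.990%. The remaining marker lists had 0 in either direction, and 0 markers were called. The part of other cells in the values below was not tested. In bulk RNA, fewer cells with a transcript and less of it per cell cannot be told apart.

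All 4 libraries numbered 1 stood apart from the 7 numbered 2 and 3. The slope of the deviation in log2 CPM on log2 gene length was between -0.26 and -0.094 in them and between 0.014 and 0.18 in the others, so short genes were relatively high and long genes relatively low in the libraries numbered 1. Each group of age and sex holds 1 such library. Age values are therefore given for all 11 libraries and for the 7 numbered 2 and 3.

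The mitochondrially encoded mRNAs could be read only in part. Several share their sequence with nuclear rows of the table. Chromosome 1 carries a nuclear copy of a stretch of the mitochondrial genome, at 24611535 to 24616197 on the minus strand (mm10 coordinates of the deposited table), and 6 pseudogene rows of the table lie in it. Gm28661 matched mt-Co2, Gm28437 matched mt-Co3, Gm10925 matched mt-Atp6 and Gm28439 matched mt-Nd4 at every base of the pseudogene. Gm28438 differed from mt-Nd3 at 1 of its 345 bases and Gm29216 from mt-Co1 at 6 of its 492. The first 120 bases of these last pseudogenes are shown with the matching stretch of the mitochondrial gene, because they hold every base at which the copies differ, printed in capitals (GENCODE vM21 transcripts, GRCm38, numbered from the first base of each transcript):

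mt-Nd3, bases 1 to 120: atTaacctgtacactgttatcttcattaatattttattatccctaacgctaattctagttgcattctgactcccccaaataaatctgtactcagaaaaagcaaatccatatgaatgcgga
Gm28438, bases 1 to 120: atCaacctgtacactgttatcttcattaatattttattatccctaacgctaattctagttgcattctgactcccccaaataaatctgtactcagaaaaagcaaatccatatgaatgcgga
mt-Co1, bases 1054 to 1173: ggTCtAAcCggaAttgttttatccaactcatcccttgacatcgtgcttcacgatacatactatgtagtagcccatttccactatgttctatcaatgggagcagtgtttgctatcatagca
Gm29216, bases 1 to 120: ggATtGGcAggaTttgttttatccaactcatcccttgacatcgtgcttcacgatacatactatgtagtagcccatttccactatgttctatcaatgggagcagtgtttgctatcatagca

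A read that lies in the lower-case letters fits both rows of a pair. In 50-base words, 100% of the mt-Co2 transcript was also found in a transcript of another gene, and the share was 99.9% for mt-Co3, 99.5% for mt-Atp6, 98.8% for mt-Nd4l and 98.0% for mt-Nd3. It was 62.2% for mt-Nd4 and 51.1% for mt-Co1, 8.19% for mt-Nd2 and 7.61% for mt-Nd5, and 0% for mt-Nd1, mt-Cytb, mt-Nd6 and mt-Atp8. Levels are given as mean CPM per kb over the 11 libraries. mt-Cytb, the cytochrome b of complex III, stood at 1176 and mt-Nd1, a membrane subunit of complex I, at 1054, while mt-Nd6, also with no shared word, stood at 204. Among the other complex I subunits mt-Nd2 had 331, mt-Nd5 253, mt-Nd4 250, mt-Nd3 14.6 and mt-Nd4l 1.36 CPM per kb. mt-Co1, the catalytic subunit of complex IV, had 1008 with 51.1% of its words shared, and mt-Co2 and mt-Co3 of the same enzyme had 28.4 and 46.4. mt-Atp6 stood at 51.3. The pseudogene rows held counts of their own, 4960 for Gm28661 and 9789 for Gm10925 over all libraries. The deposited counts thus do not say how much mt-Co2, mt-Co3, mt-Atp6, mt-Nd3 or mt-Nd4l RNA the cells held, and how the upstream counting divided shared reads is not given in the sources used here. mt-Atp8, a short gene whose end overlaps mt-Atp6, stood at 10.3 CPM per kb with no word shared with another transcript. Only annotated transcripts were searched. The stretch of the chromosome 1 copy between Gm10925, which ends at 24614651, and Gm28661, which starts at 24614885, was not. Whether it holds a copy of mt-Atp8 was not checked, so its level is uncertain too.

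**Figure D1:**
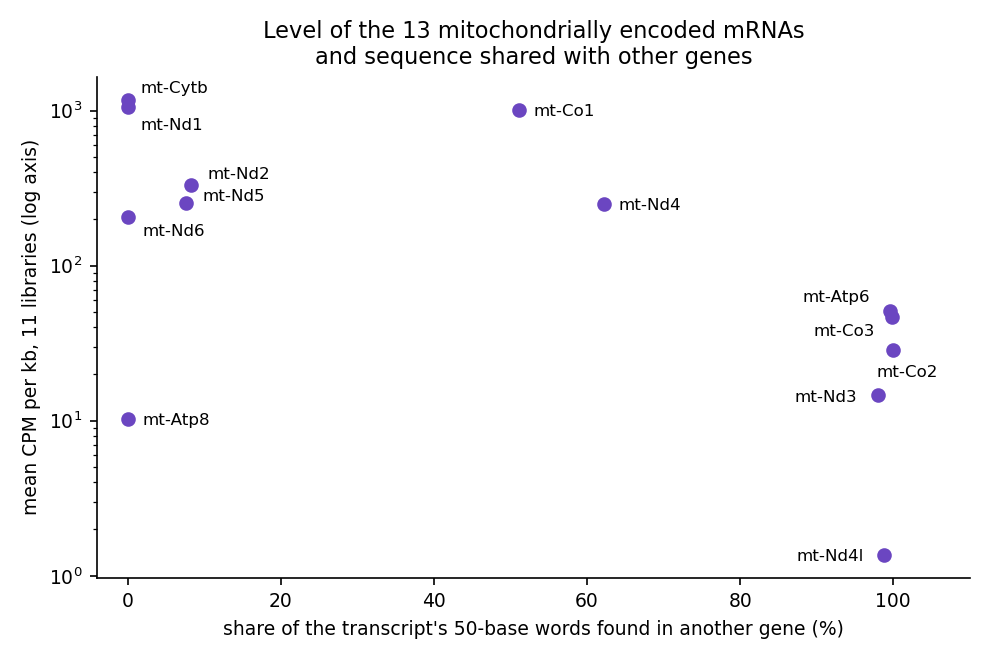
Mean CPM per kb over the 11 libraries (log axis) of the 13 mitochondrially encoded mRNAs against the percent of their 50-base words found in a transcript of another gene. The 5 mRNAs at 98.0% or more lie between 1.36 and 51.3 CPM per kb, and mt-Cytb and mt-Nd1, with no shared word, lie above 1000.

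With age, no member of the respiratory chain or the ATP synthase passed the test. Of the 111 rows, 102 passed the filter on low counts (90 nuclear and 12 mitochondrially encoded), and in edgeR's quasi-likelihood fit with age and sex 0 of the 102 had a Benjamini-Hochberg adjusted p under 0.05, where 3 of 13129 genes tested (0.0229%) did. At an unadjusted p under 0.05, 0 members were higher and 0 lower in Old, against 2.00% and 0.990% of all genes tested. No member had Young and Old libraries that did not overlap in CPM, against 1.31% of all genes. DESeq2's Wald test and limma voom with quality weights also called 0 members. At an unadjusted p under 0.05 DESeq2 had 0 members, against 4.4% of all genes. There voom had 2, against 9.0%, the assembly factors Ndufaf4 and Ndufaf7, both higher in Old. The smallest unadjusted p among the members was 0.194, for Ndufaf6, and every adjusted p was 1.00 to 3 digits.

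The width of the intervals sets how much this says. With all 11 libraries the 95% interval of the log2 fold change lay within a 2-fold change in either direction for 48 of the 102 members. In the 7 libraries numbered 2 and 3 it lay within 2-fold for 97 of 102, with 0 members called (background 0.0220% of 13634 genes) and 0 at an unadjusted p under 0.05 (background 4.61%). For most members a 2-fold difference thus lay outside the interval once the libraries numbered 1 were left out, and smaller differences remain possible.

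The median log2 fold change of Old over Young was -0.10 over the 102 members, 19 above 0 and 83 below, beside a median of 0.0028 over all genes tested. The sign of that median differed between subsets of the libraries. It was 0.24 without Young female 1, 0.10 without Young male 1, 0.042 without Old female 3 and 0.054 in the 7 libraries, where 73 members were above 0 and 29 below. These fits hold no term for the replicate number, and the 7 libraries hold 2 numbered 2 and 2 numbered 3 in Young but 2 and 1 in Old. Within the libraries numbered 1, 2 and 3 the medians of the Old minus Young difference in mean log2 CPM were -0.36, -0.013 and -0.040.

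**Figure D2:**
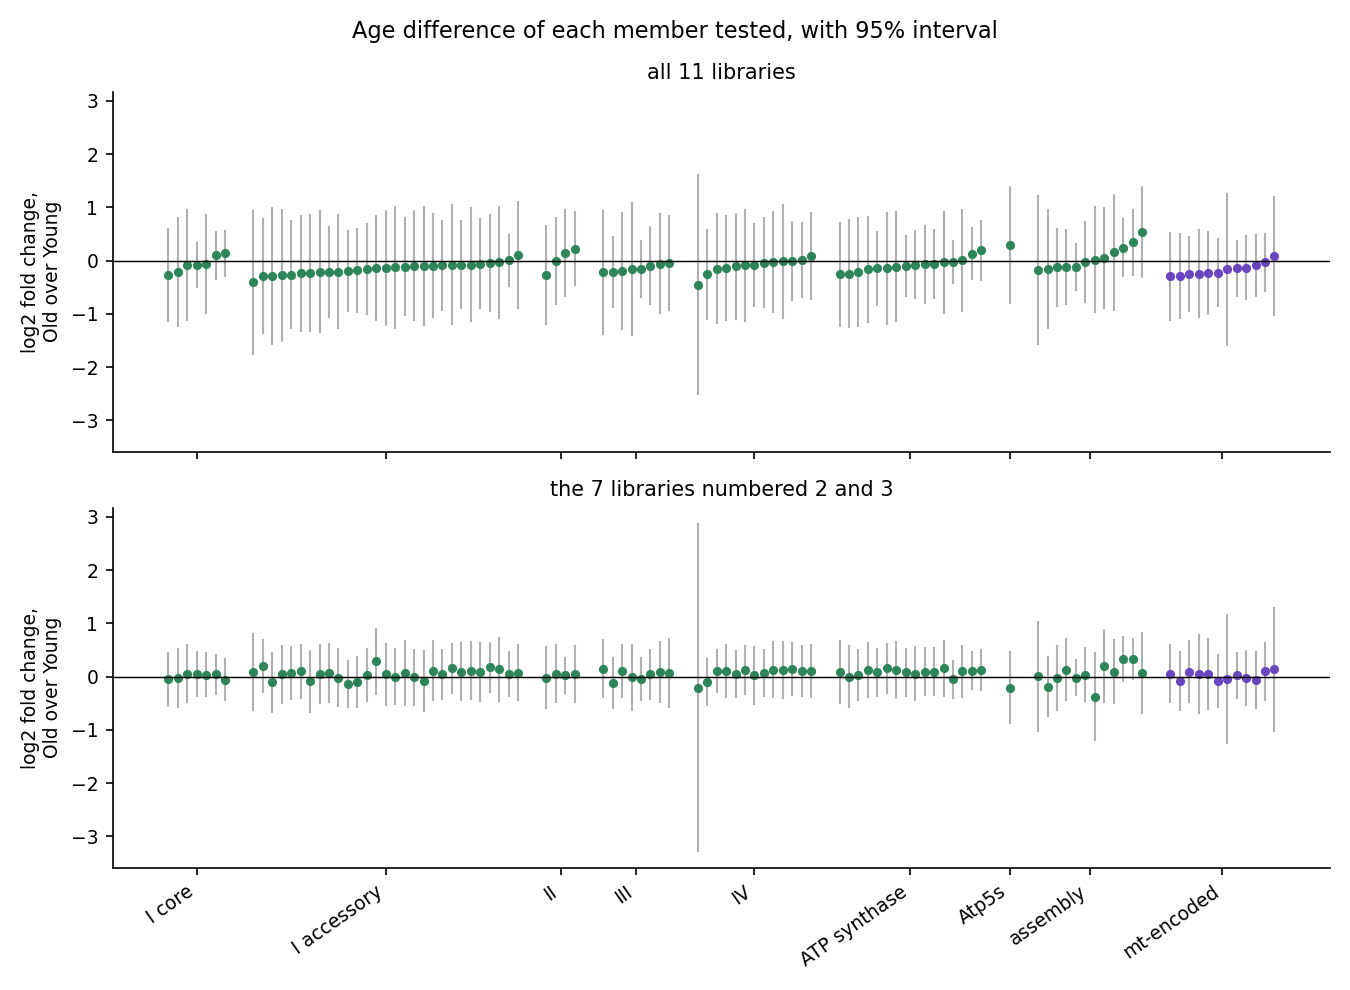
Log2 fold change of Old over Young (points) with its 95% interval (lines) for each of the 102 members tested, by complex, nuclear genes in green and mitochondrially encoded in purple, in all 11 libraries (top) and in the 7 numbered 2 and 3 (bottom). Every interval holds 0, and the intervals are narrower in the lower panel for most members.

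Complex I, the NADH dehydrogenase, has 7 nuclear core subunits in the rule, which carry its flavin and iron-sulphur clusters, and 29 accessory subunits, and all were tested. The core subunits had a median log2 fold change of -0.08 and the accessory subunits of -0.14, 2 of the latter above 0 and 27 below. In the 7 libraries these medians were 0.039 and 0.065. Ndufa12, an accessory subunit, had the lowest value of the complex. It had between 73.8 and 589 CPM in Young with a median of 136, and 254, 118, 310, 138 and 79.3 in Old male 1, Old male 2 and Old female 1, 2 and 3, a log2 fold change of -0.41 (95% interval -1.75 to 0.93, unadjusted p = 0.517, exact permutation p = 0.861, n = 6 and 5). The highest libraries of either age were those numbered 1. All Old values lay within the range of Young, and Young male 1 (589 CPM) and Young female 1 (447) lay above every Old library. Ndufa1, at 562 CPM per kb the most abundant accessory subunit, had a value of -0.21 (-1.34 to 0.93). Among the core subunits the extremes were Ndufs3 at -0.27 and Ndufv1, which binds NADH, at 0.14, and Ndufs8 was the most abundant at 246 CPM per kb. Ndufc2 had the highest value of the accessory subunits, 0.10.

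Complex II, the succinate dehydrogenase, has 4 subunits, all tested, with a median of 0.073. Sdhb, its iron-sulphur subunit, had 235 to 896 CPM in Young with a median of 367, and 553, 292, 557, 388 and 229 in the Old libraries in the same order, a log2 fold change of -0.27 (-1.19 to 0.64). Sdhc, a membrane anchor, was at the other end with 0.23 (-0.46 to 0.91). Sdha, the flavoprotein, was low in a single library: 95.8 CPM in Young female 1, where the other Young libraries had up to 553 and a median over Young of 427, and 276, 467, 431, 458 and 465 in Old. Its log2 fold change was 0.15 in all libraries and 0.025 in the 7.

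Complex III, the cytochrome bc1 complex, had 8 nuclear members, all tested and all below 0, with a median of -0.16. In the 7 libraries 5 of the 8 were above 0 and the median was 0.056. Uqcrq and Uqcrb, small subunits that flank cytochrome b, marked the lowest and highest values, -0.22 (-1.38 to 0.94) and -0.046 (-0.92 to 0.83), and Uqcr10 was the most abundant at 414 CPM per kb. Uqcrq had 143 to 699 CPM in Young and 137 to 471 in Old. The groups overlapped, and the libraries numbered 1 held the 4 highest values.

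Complex IV, the cytochrome c oxidase, had 20 nuclear members with Ndufa4, once assigned to complex I and counted here with complex IV, and its relative Ndufa4l2. The 13 tested had a median of -0.08, and 0.10 in the 7 libraries. Several of its subunits exist as isoforms of broad or narrow tissue use, and the cells held the broad ones. Cox6a1 stood at 703 CPM per kb and its heart and muscle form Cox6a2 at 1.91. Cox6b1 stood at 580 and the testis form Cox6b2 at 0.661, Cox7a2 at 294 and the muscle form Cox7a1 at 0.405, and Cox4i1 at 360 and Cox4i2 at 0.040. Cox8a was the most abundant nuclear member of all, at 818 CPM per kb, while Cox8b and Cox7b2 had no count in any library and Cox8c and Ndufa4l2 had 2 counts each, in 1 library. Counts of 0 allow up to 3 counts, which is between 0.119 and 0.543 CPM by library. Ndufa4 stood at 300, Cox6c at 102, Cox7a2l, which takes part in joining complexes III and IV, at 180, and Cox7b at 200 CPM per kb. The differences with age were 0.093 for Cox8a (-0.71 to 0.90), -0.037 for Cox6a1, -0.13 for Cox6b1, -0.015 for Cox7a2, -0.083 for Cox4i1, -0.086 for Ndufa4, -0.10 for Cox6c, -0.26 for Cox7a2l and -0.032 for Cox7b on the log2 scale. Cox6a2 had the lowest value of all members, -0.45, on 0 to 53 counts in a library, and its interval ran from -2.51 to 1.60. Cox6b2 did not pass the filter; it had 82 and 28 counts in Old male 1 and Old female 1 and at most 11 in every other library, 0.285 ± 0.198 CPM in Young (SD, n = 6) and 1.27 ± 1.56 in Old (n = 5).

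The ATP synthase had 17 nuclear rows. Of these 16 were tested, and the other was a second row named Atp5o (ENSMUSG00000116933) without a count in any library. The median was -0.087, and 0.095 in the 7 libraries. The catalytic beta subunit, Atp5b, had 925 to 1659 CPM in Young with a median of 1398, and 1171, 1765, 1373, 1725 and 1402 in the Old libraries, a log2 fold change of 0.13 (-0.35 to 0.61). Young male 1 was its lowest library and Old male 2 its highest. Atp5d, the delta subunit of the central stalk, had the highest value, 0.19 (-0.36 to 0.75), and Atp5o, which links the stator to the head, the lowest, -0.25 (-1.22 to 0.71). Atp5h was the most abundant at 358 CPM per kb. The ring of c subunits is made from 3 genes whose mature proteins are the same. Atp5g1 had a mean of 393, Atp5g3 of 328 and Atp5g2 of 96.8 CPM. Per kb of all exons, on lengths of 4912, 2181 and 1675 bases, the order was Atp5g3 at 150, Atp5g1 at 80.0 and Atp5g2 at 57.8 CPM, so the order depends on the length used. The tested row of Atp5o shares 41.6% of its 50-base words with other genes. Atp5g2 shares 38.3%, most of them with the pseudogene Gm10175, and Atp5g1 shares 11.1%. The differences with age were -0.099 for Atp5g3, -0.12 for Atp5g1 and -0.075 for Atp5g2. Atp5s, named with the enzyme but not a subunit of it, had a value of 0.29 (-0.80 to 1.39).

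The 12 assembly factors, of complexes I and II, had a median of -0.0044, 6 above 0 and 6 below, and 0.054 in the 7 libraries. Ndufaf6 had 9.95 to 33.2 CPM in Young with a median of 18.3, and 43.7, 16.6, 38.8, 28.7 and 14.9 in Old, a log2 fold change of 0.54 (-0.31 to 1.39, unadjusted p = 0.194, exact permutation p = 0.229). The upper Old values were again those of the libraries numbered 1, and the value was 0.070 in the 7 libraries. Sdhaf3, a factor for the iron-sulphur subunit of complex II, had the lowest value, -0.18, and Ndufaf8 was the most abundant at 113 CPM per kb. The rows of Sdhaf1 and Ndufaf2 shared 69.0% and 64.1% of their 50-base words with another gene and are uncertain for that reason. Of the 98 nuclear members 42 shared no such word.

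The 12 mitochondrially encoded mRNAs tested had a median log2 fold change of -0.19, 1 above 0 and 11 below, and in the 7 libraries the median was 0.038 with 7 above 0. mt-Cytb had 1013 to 2533 CPM in Young with a median of 1125, and 1279, 1434, 1514, 1027 and 1105 in Old, a log2 fold change of -0.13 (-0.73 to 0.46). Young female 1 was the highest library, and the other 10 lay between 1013 and 1631. mt-Nd1 had a value of -0.23 (-0.85 to 0.40), mt-Co1 of -0.14 (-0.66 to 0.37), mt-Nd2 of -0.25, mt-Nd4 of -0.29, mt-Nd5, a proton-pumping subunit of complex I, of -0.032, and mt-Nd6, which alone of the 13 is encoded on the opposite strand, of -0.090. The mRNAs that share their sequence with pseudogenes had -0.29 (mt-Atp6), -0.25 (mt-Co2), -0.24 (mt-Co3) and -0.16 (mt-Nd3), and mt-Atp8, on 4 to 62 counts a library, 0.085. mt-Nd4l did not pass the filter, with 3 to 9 counts in a library.

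Mitochondrial and nuclear parts of the chain were set side by side within each library. The 13 mitochondrially encoded mRNAs took 0.429% to 0.841% of all counts in Young with a median of 0.474%, and 0.442%, 0.567%, 0.545%, 0.386% and 0.501% in Old male 1, Old male 2 and Old female 1, 2 and 3. The groups overlapped, and the mean difference of Old minus Young was -0.056 percentage points, which lies under the within-group SD of 0.128. The log2 ratio of mitochondrially encoded to nuclear subunit counts was -2.71 to -1.56 in Young and -2.48 to -1.46 in Old, a mean difference of -0.087 beside a within-group SD of 0.43. Within the numbers 1, 2 and 3 that difference was -0.017, -0.17 and 0.18. No test was made of these summed values.

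**Figure D3:**
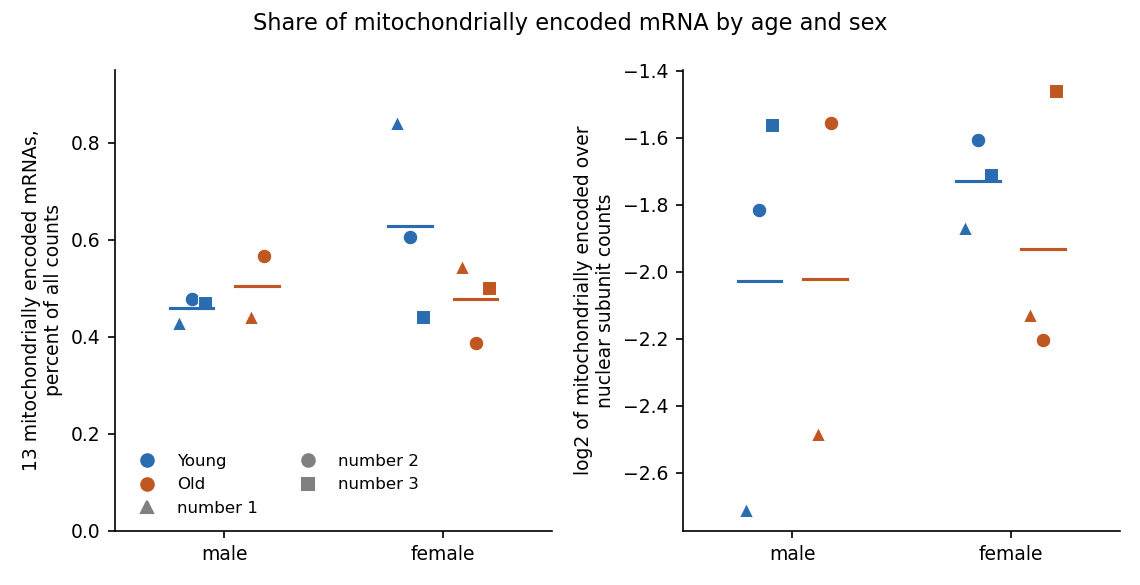
Percent of all counts on the 13 mitochondrially encoded mRNAs (left) and log2 ratio of their counts to those of the nuclear subunits (right), by sex, with Young in blue and Old in orange, the shape giving the replicate number and the bar the mean of each group. The highest share, 0.841%, is that of Young female 1, and the lowest ratio, -2.71, that of Young male 1.

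Sex made no difference that passed the test either. Between males and females 0 members were called, against 0.0381% of all genes, and 0 had an unadjusted p under 0.05, against 0.754%. In males alone the median age difference of the members was 0.20, with 83 of 103 above 0, and in females alone it was -0.35, with 92 of 102 below 0. The interaction of age and sex, tested over all genes, called 0 members and 0 of 13129 genes (0%), and at an unadjusted p under 0.05 it held 1 member against 1.20% of all genes. That member was mt-Co3, with an interaction of 1.36 on the log2 scale (unadjusted p = 0.0486, adjusted p = 1.00 in edgeR), for which the reads cannot be told from those of its pseudogene. DESeq2 and limma voom called 0 members for sex or the interaction as well, and for the interaction they held 2 and 5 members at an unadjusted p under 0.05. Without Young female 3 there were 6, and 0 or 1 when any other single library was left out. The share over all genes was not computed for these alternatives. The difference between the sexes in the age median was thus not shown, and each sex holds 1 of the 2 libraries of lowest depth.

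The spread that the age test met lay mostly along the replicate number. The 85 nuclear subunits summed to 25615 to 36008 CPM in the 4 libraries numbered 1, to 16134 to 17882 in the 4 numbered 2 and to 12395 to 13006 in the 3 numbered 3, whatever the age and sex. The 3 ranges did not overlap. The same order held for the accessory subunits of complex I, with 7200 to 10588, 3613 to 4134 and 2597 to 2710 CPM, and for complexes III and IV, and for the ATP synthase the ranges were 7094 to 9412, 5668 to 6160 and 4584 to 4783. The mitochondrially encoded mRNAs did not follow it, at 4765 to 9851, 3724 to 5870 and 3968 to 4501 CPM.

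**Figure D4:**
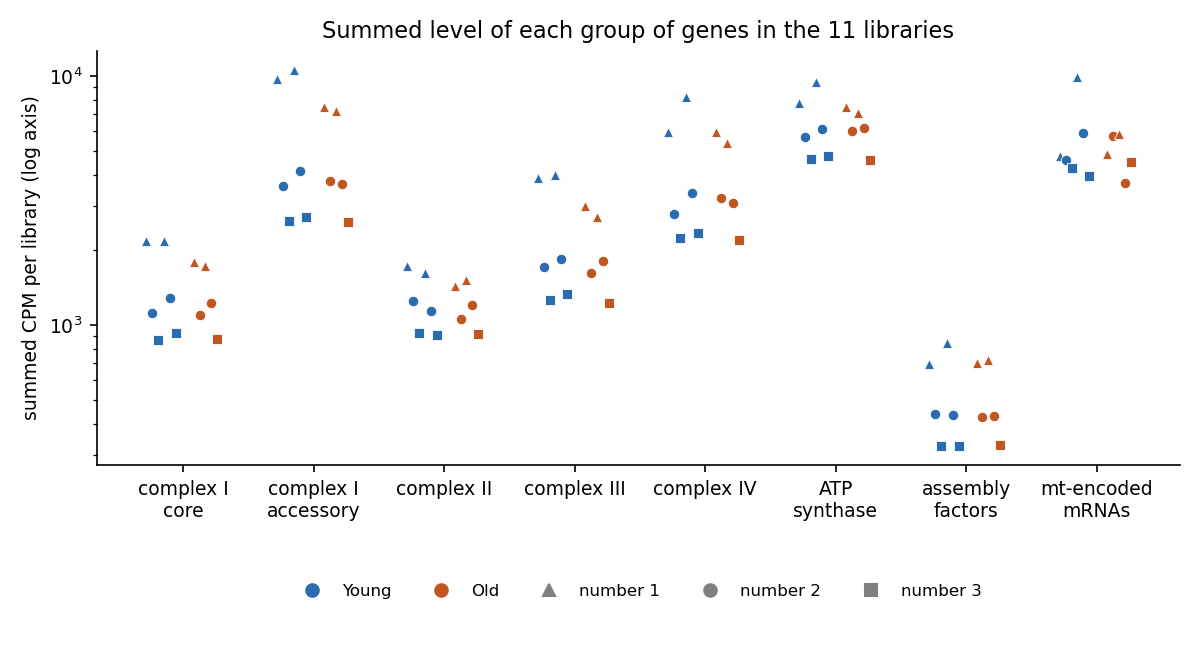
Summed CPM (log axis) of each group of genes in every library, Young in blue and Old in orange, the shape giving the replicate number. In each nuclear group the libraries numbered 1 (triangles) lie above those numbered 2 and 3 at both ages, and the mitochondrially encoded mRNAs overlap between numbers.

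All 4 libraries numbered 1 lay above all 7 others for 71 of the 102 members tested, and 71 of 90 nuclear members, against 12.8% of all genes tested. These counts describe how the libraries fell and were not tested. The NK cell list summed to 7209 to 9770 CPM in the libraries numbered 1 and to 2744 to 4690 in the others, and the B cell list to 108 to 150 and to 153 to 355. Neither pair of ranges overlapped, while the ranges of the other 6 marker lists did. Gene by gene the NK cell list went mostly the other way. Of its 7 genes 2 had a higher mean log2 CPM in the libraries numbered 1, and the median difference was -0.65. Of the 5 B cell genes 0 did, with a median of -2.72. The part of these cells in the counts was not tested. The 71 held all 29 accessory subunits of complex I, 7 of 8 members of complex III, 12 of 13 of complex IV and 11 of 16 of the ATP synthase, but 4 of 7 core subunits of complex I, 2 of 4 of complex II and 6 of 12 assembly factors. None of the 12 mitochondrially encoded mRNAs was among them. The mean log2 CPM of the libraries numbered 1 minus that of the others was 1.46 at the median of the accessory subunits, 1.16 over the nuclear members, 0.34 over the mitochondrially encoded mRNAs and -0.27 over all genes.

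Short genes were in general higher in these libraries, and the nuclear members were set beside all genes of their length. Up to 1000 bases, 20 of 21 nuclear members had all libraries numbered 1 on top against 27.2% of all genes of that length. From 1000 to 2000 bases it was 28 of 33 against 28.3%, from 2000 to 4000 bases 15 of 24 against 13%, and above 4000 bases 8 of 12 against 5.26%. The 4 members above 4000 bases that did not follow were Ndufs1, a core subunit with iron-sulphur clusters (-0.35), Sdha (-0.84), Atp5b (-0.45) and Uqcrc1, a core subunit of complex III (0.65), whose lowest library numbered 1 had 563 CPM and highest other 587. The mitochondrially encoded mRNAs had lower medians than the genes of their length. Up to 1000 bases it was 0 of 7, with a median difference of 0.33 beside 0.71 over all genes, and from 1000 to 2000 bases 0 of 5, with 0.34 beside 0.48. mt-Nd3 went furthest the other way, at -1.61, with 1.27, 2.23, 3.34 and 1.54 CPM in the libraries numbered 1 and 2.63 to 10.3 in the others. The lengths are those of the deposited table, which counts all exons of a gene, and a gene such as Atp5l with 6443 bases there can be read from a much shorter transcript.

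**Figure D5:**
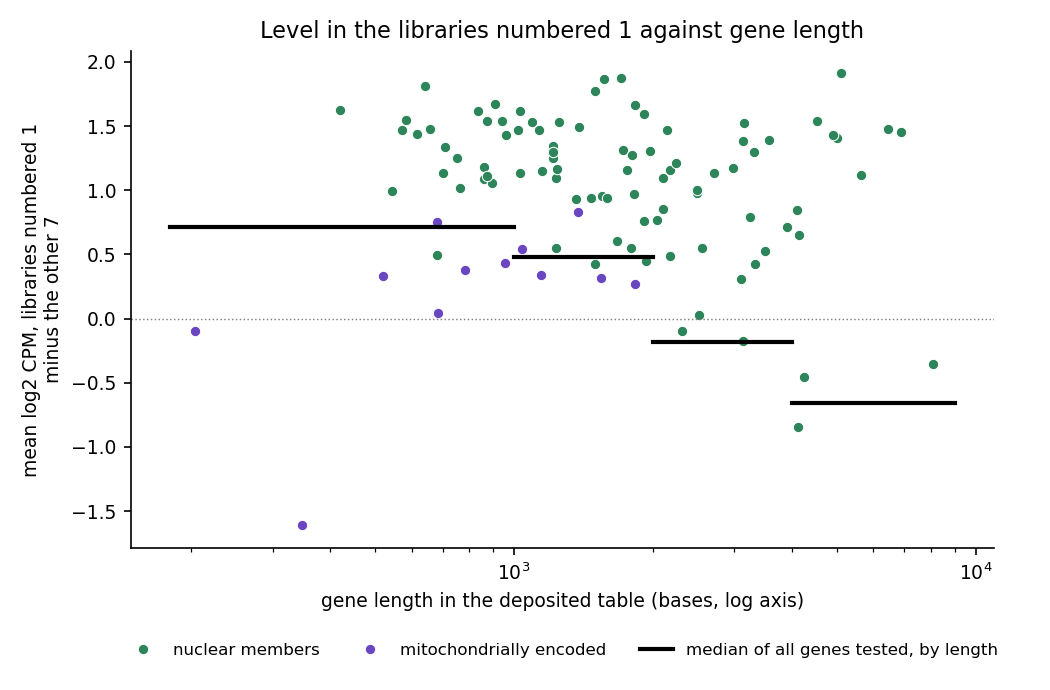
Difference in mean log2 CPM between the 4 libraries numbered 1 and the 7 others against gene length in the deposited table (log axis), nuclear members in green and mitochondrially encoded in purple, with the median of all genes tested in 4 length classes as black bars. Most nuclear members lie above the bar of their class, with a median of 1.16, and the mitochondrially encoded mRNAs lie lower, with a median of 0.34.

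The promoters of the 2 members with most kinds of motif are shown, with the share of members and of all genes that hold each motif. RefSeq promoter windows (GRCm38.p6, 250 bases before to 50 after a transcript start) were matched for 81 of 98 nuclear members, 80 genes with 85 distinct windows searched. Motifs were searched on both strands: GCGCATGCG for NRF1, CCGGAAG for the ETS factor GABPA, AAGATGGC for YY1 and AAGGTCA for the estrogen-related receptors (ERR), 4 kinds of factor known for respiratory chain genes, with GGGCGG for the GC box of Sp1 and TATAAA for the TATA box. The NRF1 letters were found in 10 of 80 member genes (12.5%) and 4.37% of 9255 genes tested with a window. The shares were 26.3% and 21.7% for ETS, 13.8% and 5.65% for YY1, 10.0% and 3.95% for ERR, 48.8% and 67.6% for the GC box, and 10.0% and 8.65% for the TATA box. A gene was counted if any of its windows held the letters, so genes with more windows have more room for a match. By window, over the 85 of members and all 32851 of the same length, the shares were 11.8% and 1.75% for NRF1 and 24.7% and 8.86% for ETS. They were 12.9% and 2.75% for YY1, 9.41% and 4.72% for ERR, 47.1% and 35.7% for the GC box, and 10.6% and 13.6% for the TATA box. Atp5k and Atp5l, small membrane subunits of the ATP synthase, were the members with 3 of the first 4 kinds. Capitals mark the matches to the NRF1, ETS, YY1 and ERR letters on either strand, and overlapping NRF1 matches form 1 run:

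Atp5k, chr5:108434350-108434649, minus strand: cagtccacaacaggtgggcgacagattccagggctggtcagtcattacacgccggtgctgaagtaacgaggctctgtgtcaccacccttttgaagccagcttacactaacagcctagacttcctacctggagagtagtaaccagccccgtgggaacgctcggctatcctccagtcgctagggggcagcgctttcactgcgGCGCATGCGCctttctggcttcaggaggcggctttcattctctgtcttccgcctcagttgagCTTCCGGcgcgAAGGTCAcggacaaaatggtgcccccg
Atp5l, chr9:44920693-44920992, minus strand: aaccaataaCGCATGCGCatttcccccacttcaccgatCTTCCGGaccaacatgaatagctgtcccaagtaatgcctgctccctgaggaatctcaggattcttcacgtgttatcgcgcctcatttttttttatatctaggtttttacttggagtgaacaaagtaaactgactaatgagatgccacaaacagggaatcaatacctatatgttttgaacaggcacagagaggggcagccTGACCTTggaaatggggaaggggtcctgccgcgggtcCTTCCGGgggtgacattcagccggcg

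These genes had at least 161 and 182 CPM in the libraries numbered 1 and at most 94.2 and 93.4 in the others. With age their log2 fold changes were -0.21 and -0.15. A match of letters does not show that a factor binds, and its absence says only that these letters are not in the window.

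Genes that act on the respiratory chain from outside the name rule gave no call either. Cycs, the electron carrier cytochrome c, and Cyc1, the cytochrome c1 of complex III, had log2 fold changes of -0.20 (-1.25 to 0.85) and -0.077 (-0.63 to 0.48). Of 35 further assembly factors tested, with Surf1 of complex IV at -0.033, 0 were called and 0 had an unadjusted p under 0.05 in either direction, with a median of -0.036. Of 25 genes of mitochondrial RNA synthesis and processing it was 0 and 0 with a median of 0.043, and Tfam, which packs and transcribes mitochondrial DNA, had a value of 0.21 (-0.21 to 0.64). Of 11 regulators 0 were called and 0 had an unadjusted p under 0.05. Their median was 0.040, their values ran from -0.46 to 1.86, and the highest end of any of their intervals was 4.68. Among them were Esrra, an estrogen-related receptor, at 0.43 (-0.22 to 1.08) and Nrf1 at -0.0043 (-0.53 to 0.52). Of 9 genes of mitochondrial DNA upkeep 0 were called and 0 had an unadjusted p under 0.05, with a median of 0.014. One name of the lists, Fastkd4, had no row of that symbol.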

How the data were processed

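RNA was extracted with a Zymo kit, made into libraries with a SMARTer kit and sequenced by Novogene. The authors deposited whole-number counts per gene with gene coordinates; the submitters' processing notes name kallisto and mm10, and the version, the strand setting, the treatment of shared reads and the making of gene counts are not given in the sources used here. Every column was used.

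Counts were filtered with filterByExpr (minimum 10, total 15), scaled by TMM and fitted with edgeR 4.0.16 (R 4.3.3, glmQLFit, robust, sex and age) over 13129 genes, with Benjamini-Hochberg adjustment and a threshold of 0.05. Fold changes are log2, and log2 CPM used a prior count of 2. Permutation p-values are exact and two-sided over 462 choices of 5 of 11 libraries, with 0.0022 the smallest possible. limma 3.58.1 and DESeq2 1.42.0 served as alternatives. P-values measure the spread between libraries, which the study calls independent replicates, and intervals and floors of 3 counts cover no other error.

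Members, gene lists, motifs and tests were chosen with earlier results of these data known. Genes were named by rule: all mt- genes; members under 0.05 for age, sex or the interaction; members without overlap; per nuclear group the most abundant by CPM per kb and the extremes of fold change; and the isoform families. Atp5k, Atp5l, Atp5b, Sdha, Ndufs1, Uqcrc1, Ndufaf4, Ndufaf7, Ndufa7, Ndufaf2, Sdhaf1 and Atp5s were added after their values were seen. The rule for naming genes did not cover the lists of other genes, from which Surf1, Tfam, Esrra and Nrf1 were named. Sequences and shared words come from GENCODE vM21, which gives 104 of the 111 members the coordinates of the table, and RefSeq.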

Additional observations from a re-analysis of the deposited data

Results flagged for a closer look

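Among the 46 measures checked, each in the Young and the Old libraries, 13 values lay further from their group than Dixon's 95% limit, and 12 of the 13 were Young female 1, the library of second lowest depth, among the 6 Young libraries. Chance flags about 1 in 20 groups. The other was the log2 ratio of mitochondrially encoded to nuclear subunit counts of Young male 1, -2.71, where the next Young library had -1.87. Young female 1 was high for the mitochondrially encoded mRNAs mt-Atp6 (88.1 CPM), mt-Co1 (2539), mt-Co2 (44.9), mt-Co3 (88.6), mt-Nd1 (2077), mt-Nd2 (722) and mt-Nd4 (844). It was also high for Ndufc2 (293 CPM), Cox8a (875), Atp5d (493), Atp5g2 (177) and Atp5g3 (560). Without it the median age difference of the members was 0.24 in place of -0.10 on the log2 scale.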

How the results depend on the processing

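In none of 28 alternatives was a member called for age, sex or their interaction where run. The count of members at an unadjusted p under 0.05 for age was 0 as reported, where the share over all genes tested was 3.0%. In what follows that share is given in brackets. The count was 2 with limma voom (9.0%), 3 with the gene length slope as a term (7.3%) and 3 in the libraries with over 10000000 counts (5.8%). When single libraries were left out it was 0 to 1 (2.3% to 3.5%). Blocking on the number inside each sex gave 1 of 102 members, Ndufa7, lower in Old (6.4%). A block with the number shared by both sexes gave 7 of 102, all lower in Old (8.9%). That block gave 5 of 102 when Old female 2 was left out (7.9%), and 0 when the length slope was added (3.4%). Same-numbered libraries deviated together with correlations of 0.32 and 0.18 in males and 0.43, 0.029 and 0.39 in females. Pairs of different number from different groups had up to 0.40. These correlations do not decide whether the number marks a shared block, and the sums of the nuclear subunits did fall into separate ranges by number. No label gives the number a meaning, and the reported fit holds no term for it. Among all genes, 3 called as reported, the block shared by both sexes called 19, 21 without Old female 2, and 0 with the length slope. It was 17 with at least 1 count in any library, 5 with at least 10 in every library, 112 with DESeq2, 138 with voom, 5 without the sex term, 45 with the length slope, 0 in males, 0 in females, 6 in the deep libraries and 1 to 4 when single libraries were left out. The median age difference of the members ran from -0.35 (females) to 0.49 (deep libraries), below 0 for most members in 19 of 28 alternatives. With the block shared by both sexes it was -0.16, with 90 of 102 members below 0, and with the length slope beside that block 0.031, with 41 below. The cause of these shifts was not tested. The alternatives without the libraries numbered 1, with the slope beside the block, and without Old female 2 were added after the data were seen.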
